A study of Mus musculus with 12 samples.

Results

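The genes described here are 38 markers of the non-immune cells of adipose tissue: 9 of adipocytes, 15 of stromal cells and extracellular matrix, 5 of mesothelium and 9 of endothelium. They were chosen by symbol, from what these cells are known to express, and were read in regulatory T cells (Tregs) taken from spleen or from perigonadal fat. Of the 38, 37 had a probe with their symbol on the array, with 63 probes in all, and Cfd was not analysed here. Detection means a deposited detection p-value under 0.05 for that probe and array, and a gene was kept for testing when 3 or more of the 12 arrays detected 1 of its probes; 14 of the genes passed, among 10025 genes in the whole study. The filter uses the same arrays as the comparisons, so a gene high in 1 group alone could pass through that group, and the 14 do not stand for the 38.

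The study hybridised total RNA of Tregs from C57BL/6 mice on a chow diet to Illumina mouse bead arrays, with 3 arrays in each of 4 groups. Control mice carried Foxp3-YFP-Cre, in which the Foxp3 gene drives Cre recombinase and a yellow fluorescent protein in Foxp3-expressing cells. Mice labelled T-bet knockout carried the same Cre together with a floxed Tbx21, the gene of the transcription factor T-bet, so both genotypes share the Cre allele and deletion is limited to cells in which Foxp3 was active. Spleen and perigonadal fat were sampled from each genotype. The sources used here give no ages, sexes, sorting gate or number of animals behind an array, so p-values measure the spread between these arrays, which may be partly technical. In a bulk RNA sample, more cells of a type and more RNA per cell cannot be told apart.

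Adipose tissue consists of fat-laden adipocytes embedded in a matrix made by fibroblast-like stromal cells, threaded by capillaries lined with endothelium and, in the visceral depots, covered by a mesothelial sheet. Adipocytes store triglyceride and secrete adipokines; stromal cells make collagens and small proteoglycans; endothelial cells hold junctional and leukocyte-binding proteins. Several of the markers are not exclusive: Fabp4 is also made by macrophages and endothelium, Selp, Sparc and Vwf by platelets or megakaryocytes, and Pecam1 by many leukocytes.

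Between 27.0% and 40.9% of all probes were detected per array, and no 2 arrays held identical values. Foxp3 was detected in all 12 arrays, at log2 intensities of 6.39 to 9.23. Tbx21 read 4.54, 4.88 and 5.19 in spleen controls, 4.69, 5.74 and 4.72 in spleen knockouts, 5.50, 7.27 and 5.17 in fat controls and 6.62, 7.57 and 4.94 in fat knockouts, and was detected in 7 arrays. It was not lower in the knockout arrays; the sources do not say where its probe lies relative to the floxed part, so it does not check the deletion, and "knockout" stands throughout for the label. The replicate number equals the slide, and on every slide the 4 groups held the same 4 places, so place and group cannot be told apart.

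Most of the 38 genes were at or below the detection limit in both tissues. No probe of Plin1, Plin4, Col1a1, Lum, Pdgfrb, Krt18 or Kdr was detected in any array, and 16 more genes had a probe detected in some array without passing the filter. Among the defining adipocyte genes, the lipid droplet coat protein perilipin (Plin1) was thus undetected, and the adipokines Adipoq and Lep were each detected in 1 array. Across the 37 genes, 17 were detected in fat arrays alone and 2, Retn and Upk3b, in spleen arrays alone. Of the 37, 12 were detected in a single array, 6 of them in fat knockout 2. No share of all genes detected in 1 tissue alone is given here, so these counts cannot be read as many or few.

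The number of the 63 probes that were detected was 10, 11 and 12 in spleen controls and 6, 7 and 7 in spleen knockouts. It was 22, 24 and 13 in fat controls and 12, 28 and 12 in fat knockouts. Fat controls 1 and 2 and fat knockout 2 stood above the other arrays, while the lowest fat arrays, at 12, equalled the highest spleen array. The share of these probes detected ran from 9.52% to 19.0% in spleen and from 19.0% to 44.4% in fat, while the share of all probes was 27.0% to 40.9% in spleen and 31.0% to 37.9% in fat.

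**Figure D1:**
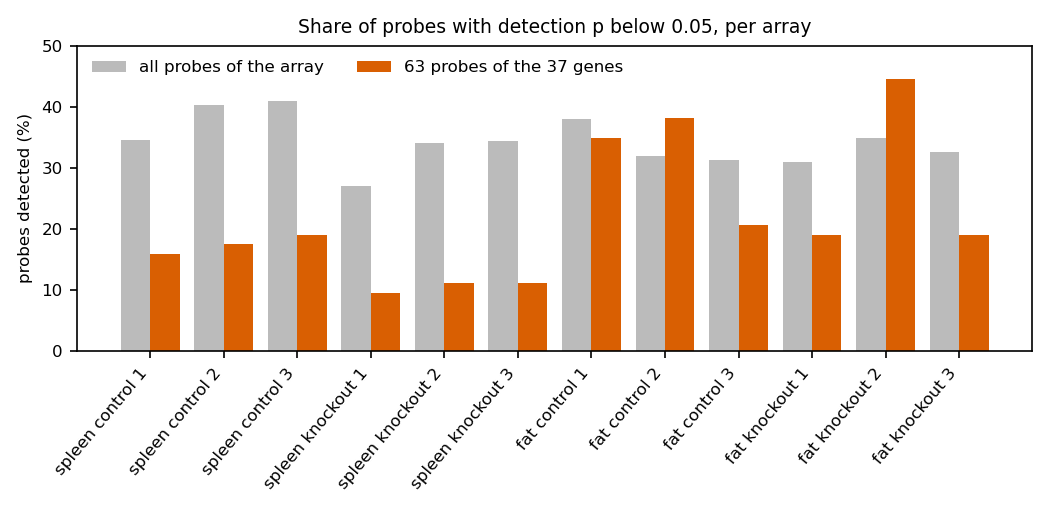
Percent of probes detected (p under 0.05) in each of the 12 arrays, for all probes of the array (grey) and for the 63 probes of the 37 genes (orange). The orange bars of fat control 2 (38.1%) and fat knockout 2 (44.4%) pass the grey ones, and those of spleen stay at or below 19.0%.

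By number of arrays, 21 of the 63 probes were detected in none, 14 in 1, 7 in 2 and 3 in all 12. Just inside the limit of 3 arrays were the probes of Col3a1, Krt8, Krt19 and Cdh5 and the second probe of Sparc. Just outside it, at 2 arrays, were Col1a2, Msln, Tie1, 2 of the 4 probes of Dcn, the third probe of Sparc and the second probe of Cdh5. The genes kept were 2 of 9 adipocyte, 5 of 15 stromal and matrix, 2 of 5 mesothelial and 5 of 9 endothelial genes.

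**Figure D2:**
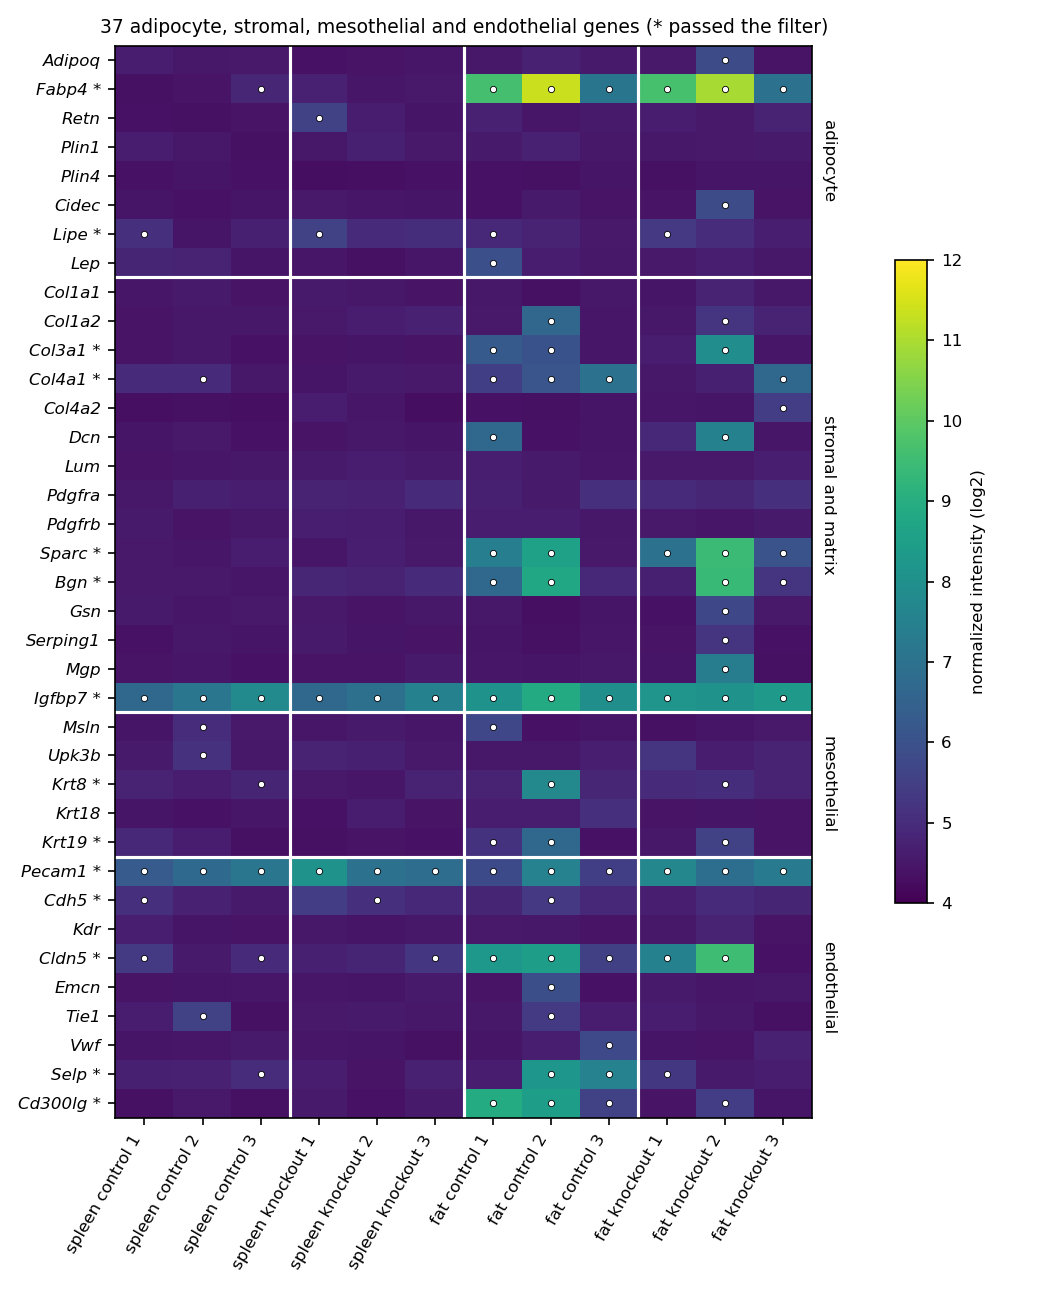
Normalized log2 intensity of the 37 genes (rows, by class) in the 12 arrays (columns, by group); a dot marks a probe detected in that array and an asterisk a gene that passed the filter. Fabp4 is bright in all 6 fat arrays, Igfbp7 and Pecam1 are detected in all 12, and most other rows stay dark or light up in single fat arrays.

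Of the 14 kept genes, 2 were called higher in fat in controls (3.66% of all 10025 genes were called higher), 1 in knockouts (3.39%) and 4 when the genotypes were averaged (7.27%). The 2 were Fabp4 and Cd300lg, the 1 was Fabp4, and the 4 were Fabp4, Sparc, Igfbp7 and Cd300lg. A call here is a Benjamini-Hochberg adjusted p below 0.05 over all genes in limma's moderated fit to the 12 arrays. None of the 14 was called lower in fat in these comparisons (2.78%, 2.38% and 8.41% of all genes were); in either direction 6.44%, 5.78% and 15.7% of all genes were called. Their median difference, fat minus spleen on the log2 scale, was 1.26 in controls, 0.60 in knockouts and 1.12 averaged, against -0.065, -0.083 and -0.069 over all genes tested. In all, 11 of the 14 had a positive averaged difference; the others were Lipe, Pecam1 and Cdh5. Col3a1, Sparc, Bgn, Krt19 and Cd300lg were detected in no spleen array and passed the filter through fat arrays alone. Fabp4, Col4a1, Selp and Krt8 were detected in 1 spleen array each and needed fat arrays to pass. Both favour positive differences among the 14, so neither the medians nor this count is a test of the members. Every fat array lay above every spleen array for Fabp4 and Igfbp7, 2 of 14, against 4.85% of all genes.

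**Figure D3:**
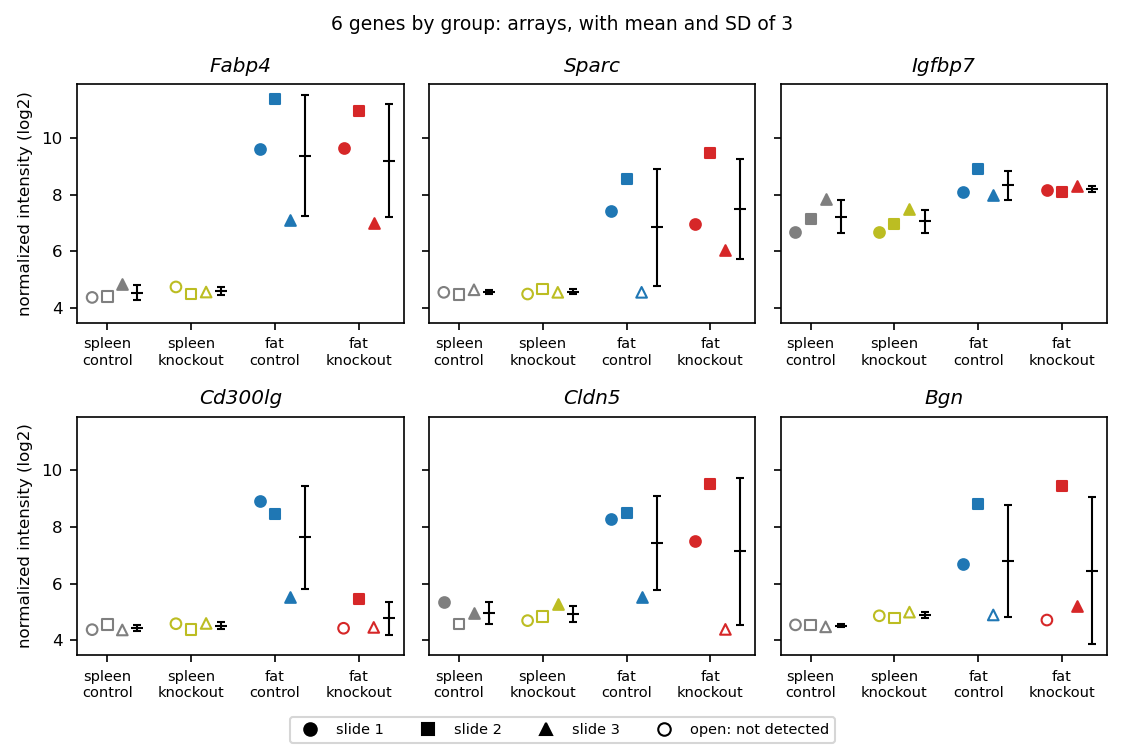
Normalized log2 intensity of 6 genes in each array (symbols by slide; open symbols, not detected), with the mean and SD of 3 arrays beside each group. Fabp4 and Igfbp7 separate the tissues in every array, while Sparc, Cldn5, Bgn and Cd300lg leave at least 1 fat array at the spleen level.

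Promoter sequence is shown for the called genes that have a window in the RefSeq table, Sparc and Igfbp7; Fabp4 and Cd300lg have none there. Each is the 250 bases before the gene's start site, 5′ to 3′ on the gene's own strand, from RefSeq on build GRCm38.p6. Capitals mark the letters GGGCGG or their reverse complement CCGCCC, the GC box that Sp-family factors bind.
Igfbp7, chr5:77408046-77408295, minus strand: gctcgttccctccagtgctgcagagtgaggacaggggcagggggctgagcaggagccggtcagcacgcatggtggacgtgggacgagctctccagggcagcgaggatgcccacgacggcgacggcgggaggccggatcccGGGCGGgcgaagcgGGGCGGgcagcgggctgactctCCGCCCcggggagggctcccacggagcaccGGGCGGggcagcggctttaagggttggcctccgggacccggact
Sparc, chr11:55420081-55420330, minus strand: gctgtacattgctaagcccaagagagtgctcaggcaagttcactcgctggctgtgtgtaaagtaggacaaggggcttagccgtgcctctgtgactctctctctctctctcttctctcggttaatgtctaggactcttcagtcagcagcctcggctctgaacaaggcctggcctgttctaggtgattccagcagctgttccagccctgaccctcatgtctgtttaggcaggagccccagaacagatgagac
The Igfbp7 window held 4 GC boxes, starting 110, 96, 74 and 44 bases before the start site, and the Sparc window held none. GGGCGG on either strand was in 32.7% of all 32851 windows in the table and in 4 of the 9 kept genes with a window. The other motifs searched on both strands in those 9 windows were TATAAA (in 1, against 12.4% of all windows), CCAAT (3, 33.8%), AGGTCA (2, 14%) and TTGCNNAA (0, 9.56%), and none of them lay in the windows of Igfbp7 or Sparc. A match describes the letters of the window and is not evidence that a factor binds there.

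Of the 2 adipocyte genes kept among the 38, Fabp4 and Lipe, Fabp4 was the 1 called higher in fat. Fabp4 encodes the fatty acid binding protein of adipocytes, which carries fatty acids in the cytosol and is also abundant in macrophages. It read 4.37, 4.41 and 4.85 in spleen controls and 4.74, 4.49 and 4.56 in spleen knockouts. In fat it read 9.63, 11.37 and 7.12 in controls and 9.66, 10.95 and 7.01 in knockouts. The tissues did not overlap, and within fat the arrays of slide 2 were highest and those of slide 3 lowest in both genotypes. The difference was 4.83 ± 1.02 in controls (log2, SE; limma adjusted p = 0.0155; detected in 1 of 3 spleen controls) and 4.61 ± 1.02 in knockouts (adjusted p = 0.0203), where Fabp4 was not detected in spleen and the fold was at least 15.9. Averaged over genotypes it was 4.72 ± 0.72 (95% interval 3.15 to 6.29, adjusted p = 0.00103). Slide by slide, the control difference was 5.26, 6.96 and 2.26 and the knockout difference 4.93, 6.47 and 2.45, positive in 6 of 6 pairs. The control call of Fabp4 was lost in 7 of 26 alternatives, among them the authors' normalized table (adjusted p = 0.0609) and leaving out spleen control 1 (0.0625) or 2 (0.0582). Its knockout call was lost in 11, among them that table (0.0852), an offset of 50 (0.0567) and leaving out any single spleen knockout (0.0587 to 0.0712), fat knockout 1 (0.0648) or fat knockout 2 (0.0686).

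The macrophage markers rose in the same arrays. Of 16 kept macrophage and monocyte genes, 11 were higher in fat in the averaged comparison and none was lower, with a median difference of 2.79. Over all genes 7.27% were higher. Cd14 and Itgam were detected in no spleen array and passed the filter through fat arrays alone, which favours higher values in fat. Among spleen arrays their summed intensity ran from 508 to 2195 with the control genotype and from 847 to 1145 with the knockout. Among fat arrays it ran from 8198 to 27184 with the control genotype and from 8263 to 15202 with the knockout, with no overlap between tissues. Within fat that sum was highest in fat control 3 (27184), where Fabp4 was 7.12, and lowest in fat control 2 (8198), where Fabp4 peaked at 11.37. The fat knockouts had another order: their sums were 8263, 15202 and 12593, where Fabp4 was 9.66, 10.95 and 7.01. There the highest sum and the highest Fabp4 fell in the same array. The part of macrophage RNA in the Fabp4 difference was not tested.

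Lipe, hormone-sensitive lipase, which frees fatty acids from stored triglyceride, did not follow Fabp4. It read 5.07, 4.45 and 4.69 in spleen controls, 5.55, 4.94 and 5.04 in spleen knockouts, 4.92, 4.76 and 4.56 in fat controls and 5.34, 5.02 and 4.67 in fat knockouts. The tissues overlapped throughout, with an averaged difference of -0.08 (95% interval -0.57 to 0.41, adjusted p = 0.857). This probe was detected in 4 of 12 arrays, 1 in each group, so most of these values lie at the detection limit. A second kept probe, detected in 5 arrays, gave -0.70 (adjusted p = 0.145 in the fit of single probes). Of the adipocyte genes that did not pass the filter, the hormone adiponectin (Adipoq) and the lipid droplet protein Cidec were detected in fat knockout 2 alone, at 5.87 and 5.83. Leptin (Lep) was detected in fat control 1 alone, at 5.95, and resistin (Retn) in spleen knockout 1 alone, at 5.59. These single detections did not fall in the same array for all 4 genes.

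Stromal and matrix genes were higher in fat in their called members, but unevenly between arrays. Igfbp7 and Sparc rose in the averaged comparison, and all 5 kept genes had positive differences in both genotypes. Of the 5, Sparc, Bgn and Col3a1 passed the filter through fat arrays alone and Col4a1 needed fat arrays to pass, which favours that direction. Igfbp7 encodes a secreted protein that binds insulin-like growth factors and is found in vessel walls and stroma. It was the 1 gene of this class detected in all spleen arrays, at 6.69, 7.15 and 7.84 in controls and 6.69, 6.96 and 7.51 in knockouts. In fat it read 8.10, 8.90 and 7.98 in controls and 8.18, 8.09 and 8.31 in knockouts. Every fat array was above every spleen array, and the fat knockouts lay close together. The averaged difference was 1.12 ± 0.27 (2.17-fold, adjusted p = 0.016); in controls it was 1.10 (adjusted p = 0.123) and in knockouts 1.14 (adjusted p = 0.116), neither past the threshold.

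Igfbp7 had 5 kept probes, and all 5 were called higher in fat when probes were fitted singly (6.08% of 20367 kept probes were), with averaged differences of 1.12, 1.37, 1.63, 1.83 and 3.91. The last of these was far larger than the other 4, whose SEs lay between 0.27 and 0.33. For this probe the spleen values were 6.11, 5.83 and 5.41 in controls and 4.58, 6.05 and 4.90 in knockouts. Its fat values were 9.36, 9.73 and 9.38 in controls and 9.44, 9.25 and 9.16 in knockouts. The 6 fat values of this probe lay within a narrow band, above all its spleen values, with a difference of 3.71 in controls (adjusted p = 0.000265; 2.9% of kept probes were called higher) and 4.11 in knockouts (adjusted p = 0.000143; 2.83%). In the gene-level fit Igfbp7 was represented by the probe of highest mean, which gave 1.12, the smallest of the 5.

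Sparc encodes osteonectin, a collagen-binding matrix protein that is also carried in platelets. It was not detected in any spleen array, where values ran from 4.48 to 4.67. In fat it read 7.41, 8.57 and 4.55 in controls and 6.98, 9.46 and 6.05 in knockouts. Fat control 3 stood at the spleen level and the other 5 fat arrays were above it. The averaged difference was 2.61 ± 0.67, at least 4.32-fold (adjusted p = 0.0208), with 2.29 in controls (adjusted p = 0.19) and 2.92 in knockouts (adjusted p = 0.0987). The slides gave 2.86, 4.09 and -0.08 in controls and 2.49, 4.79 and 1.49 in knockouts. A second kept probe, detected in 3 arrays, gave an averaged difference of 1.16 (adjusted p = 0.258 in the fit of single probes).

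Bgn, the proteoglycan biglycan, was high in 3 fat arrays. Its spleen values were 4.54, 4.54 and 4.47 in controls and 4.86, 4.78 and 4.99 in knockouts, none of them detected. Its fat values were 6.69, 8.81 and 4.89 in controls and 4.71, 9.43 and 5.21 in knockouts. Both slide 2 arrays of fat led, and fat control 3 and fat knockout 1 were undetected as well. The averaged difference of 1.93 ± 0.79 did not pass the threshold (adjusted p = 0.124).

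Col3a1, a fibrillar collagen chain, was not detected in spleen, where it ran from 4.38 to 4.52. It read 6.26, 6.02 and 4.49 in fat controls and 4.65, 7.92 and 4.49 in fat knockouts. It was detected in 3 of 6 fat arrays, the same 3 that led for Bgn, and its averaged difference was 1.20 ± 0.54 (adjusted p = 0.162). A second Col3a1 probe was detected in fat control 2 alone (8.21) and read 4.72 in fat control 1 and 4.53 in fat knockout 2, so the probes did not give the same arrays. Col4a1, a basement membrane collagen chain, had another order: it read 5.49, 6.11 and 6.97 in fat controls and 4.52, 4.69 and 6.68 in fat knockouts, and 4.46 to 4.97 in spleen. Its highest fat arrays were those of slide 3, where Fabp4, Bgn and Col3a1 were low, and its averaged difference was 1.07 ± 0.38 (adjusted p = 0.0812).

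The 10 stromal genes outside the filter were undetected or appeared in a few fat arrays. Fat knockout 2 was the array in which the growth factor receptor Pdgfra (5.09), the actin-severing protein gelsolin (Gsn, 5.73), the C1 inhibitor Serping1 (5.32) and the matrix Gla protein Mgp (7.39) were each detected, in no other array. Decorin (Dcn), a collagen-binding proteoglycan, was detected in fat control 1 and fat knockout 2, at 6.68 and 7.53 by 1 probe and 6.11 and 7.32 by another; its other 2 probes were detected in no array. Col1a2, a chain of type I collagen, was detected in fat control 2 (6.65) and fat knockout 2 (5.23), and Col4a2, the partner chain of Col4a1, in fat knockout 3 alone (5.45). Fat knockout 2 thus held detected probes of 10 of the 15 stromal genes. Col1a1, Lum and Pdgfrb were detected nowhere.

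The 2 mesothelial genes kept among the 38 gave no call. Krt8, an epithelial keratin, read 4.80, 4.62 and 4.84 in spleen controls, 4.55, 4.47 and 4.78 in spleen knockouts, 4.78, 7.75 and 4.86 in fat controls and 4.99, 5.06 and 4.81 in fat knockouts. A single array, fat control 2, stood out, and a second Krt8 probe was detected in no array. The averaged difference was 0.70 ± 0.44 (95% interval -0.26 to 1.66, adjusted p = 0.326). Krt19, another epithelial keratin, ran from 4.36 to 4.88 in spleen and read 5.16, 6.69 and 4.39 in fat controls and 4.50, 5.58 and 4.42 in fat knockouts. It was detected in 3 fat arrays and no spleen array, with a difference of 0.62 ± 0.37 (adjusted p = 0.292). Mesothelin (Msln), the defining surface protein of mesothelium, was detected in fat control 1 (5.69) and spleen control 2 (5.00), uroplakin Upk3b in spleen control 2 alone, and Krt18, which pairs with Krt8, in no array.

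Among endothelial genes, Cd300lg rose in fat controls and in the average, and Cldn5 and Selp were high in some fat arrays without passing the test. Cd300lg, also called nepmucin, is a capillary endothelial receptor that binds lymphocytes. It was undetected in all spleen arrays, at 4.36 to 4.59. In fat it read 8.91, 8.45 and 5.54 in controls and 4.42, 5.44 and 4.45 in knockouts. All 3 fat controls lay above all spleen arrays, whereas fat knockouts 1 and 3 were undetected. A second Cd300lg probe was detected in no array and read 4.79, 4.53 and 4.67 in fat controls. The control difference was 3.21 ± 0.69, at least 6.65-fold (adjusted p = 0.0173), the knockout difference 0.25 ± 0.69 (adjusted p = 0.887), and the averaged one 1.73 ± 0.49, at least 2.21-fold (adjusted p = 0.0324). The control call of Cd300lg was lost in 7 of 25 alternatives, among them leaving out spleen control 1 (adjusted p = 0.0642) or 2 (0.0543) and fat control 1 (0.0532) or 2 (0.0576). The averaged call was lost in 15, among them the authors' normalized table (0.0559) and leaving out any single spleen array (0.06 to 0.0686), fat control 1 (0.0635), fat control 2 (0.0677) or fat knockout 2 (0.0707).

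Cldn5 encodes claudin-5, a protein of endothelial tight junctions. It read 5.36, 4.57 and 4.96 in spleen controls, 4.69, 4.83 and 5.26 in spleen knockouts, 8.28, 8.48 and 5.52 in fat controls and 7.51, 9.51 and 4.38 in fat knockouts. The 4 fat arrays of slides 1 and 2 were well above spleen, and fat knockout 3 was undetected. The averaged difference of 2.34 ± 0.76 missed the threshold (adjusted p = 0.0566). It passed in 7 of 26 alternatives, among them the slide as a block (0.042) and leaving out fat control 3 (0.0229) or fat knockout 3 (0.00462).

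Selp, P-selectin, which tethers leukocytes to activated endothelium and is stored in platelets, read 4.43 to 5.01 in spleen. Its fat values were 4.62, 8.20 and 7.56 in controls and 5.29, 4.58 and 4.64 in knockouts. Fat controls 2 and 3 alone were high, and the averaged difference was 1.11 ± 0.50 (adjusted p = 0.155; 0.00134 without fat control 1, which raised it to 1.66). Platelet genes were measured beside it: 4 of 9 listed were kept, and their summed intensity was 352 to 900 in spleen and 406 to 3267 in fat. Pf4, the platelet chemokine that macrophages can also make, was the 1 of the 4 that rose (4.26, adjusted p = 0.000116), and Ppbp, Gp1bb, Gp5 and Treml1 were undetected in every array. The part of platelet RNA in the Selp and Sparc values was not tested.

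Pecam1, the adhesion protein CD31 of endothelium and leukocytes, was detected in all 12 arrays. It ran from 6.30 to 8.08 in spleen and from 5.49 to 7.69 in fat, with an averaged difference of -0.23 (95% interval -1.07 to 0.60, adjusted p = 0.736). Cdh5, the cadherin of endothelial junctions, was detected in 4 arrays counting both its probes and in 3 by the tested probe, which ran from 4.57 to 5.46 in spleen and 4.68 to 5.33 in fat, a difference of -0.04 (95% interval -0.50 to 0.41, adjusted p = 0.918). The VEGF receptor Kdr was undetected everywhere. Emcn was detected in fat control 2 alone (5.93), Vwf in fat control 3 alone (5.78), and the receptor Tie1 in spleen control 2 (5.55) and fat control 2 (5.36).

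**Figure D4:**
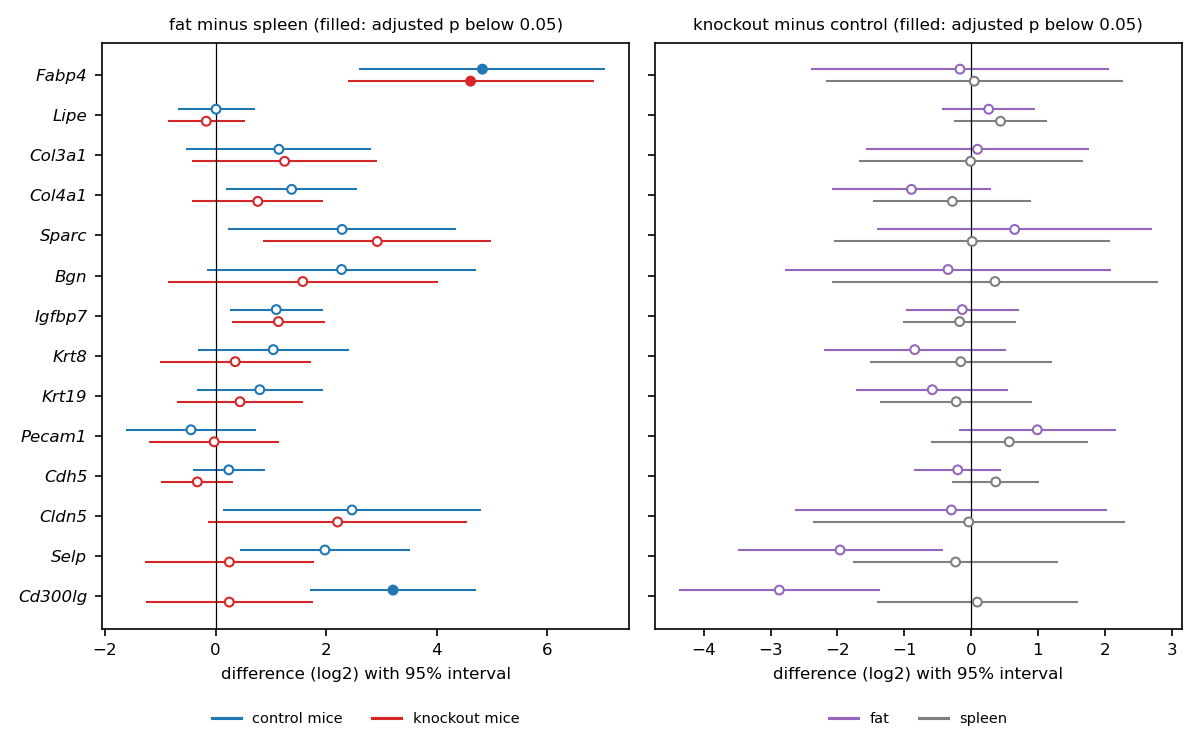
Differences on the log2 scale with 95% intervals for the 14 kept genes, fat minus spleen in control and knockout mice (left) and knockout minus control in fat and spleen (right); filled points passed the adjusted p of 0.05. Fabp4 is filled in both genotypes and Cd300lg in controls, and no point on the right is filled.

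None of the 14 was called between the genotypes in fat (0.00998% of all genes were called), in spleen (0%) or in the difference of the 2 effects (0%), by limma. At an unadjusted p below 0.05 the counts were 2, 0 and 1. No share of all genes below that unadjusted threshold is given here, so these counts cannot be read as many or few. The median knockout minus control difference was -0.25 in fat and 0.01 in spleen, against 0.008 and 0.004 over all genes. Cd300lg had the lowest difference in fat, -2.87 ± 0.69 (95% interval -4.38 to -1.36), with an unadjusted p = 0.00137 and an adjusted p = 0.296; the 3 fat controls lay above the 3 fat knockouts. The change of its tissue difference between genotypes was -2.96 (adjusted p = 0.999). The Cd300lg genotype difference in fat passed the threshold without fat control 3. Selp differed in fat by -1.96 ± 0.70 (adjusted p = 0.588), with overlapping groups, and passed the threshold without fat control 1. For Fabp4 the genotype difference in fat was -0.17 (95% interval -2.39 to 2.06), an interval wide enough to hold a 4-fold change either way.

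The fat arrays differed among themselves more for these genes than for most. The SD over the 6 fat arrays had a median of 1.27 over the 14 genes and 0.63 over all genes tested, while over the 6 spleen arrays the medians were 0.21 and 0.48. Bgn, Cd300lg, Cldn5, Fabp4, Sparc and Selp had SDs in fat at or above the percentile of 98.2 among all genes. Bgn, Cd300lg, Sparc, Col3a1 and Krt19 were detected in no spleen array, so their small SDs in spleen lie at the detection limit. They passed the filter through some of the fat arrays alone, which favours a wide spread in fat. Fabp4, Col4a1, Selp and Krt8 needed fat arrays to pass as well. The SDs of the 14 genes are therefore no test of the members. Fat control 2 was the highest fat array for 6 of the 14 and fat knockout 2 for 4, while fat knockout 3 was highest for 0.

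Counting genes whose highest array was a detected one, slide 2 was the highest of the 3 for 10 of 14 genes among fat controls and for 8 of 13 among fat knockouts. The top slide was the same in both genotypes for 8 of 13 genes (61.5%), against 38.4% of all genes so counted. Summed over the 14 genes, intensity was 2457, 5663 and 1022 in fat controls and 1873, 4980 and 997 in fat knockouts, and 514 to 705 in spleen. The order of slides was thus the same in both genotypes, 2 above 1 above 3, and all fat sums were above all spleen sums. The filter favours higher sums in fat, since some of the 14 genes passed it through fat arrays alone.

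Other cell lists were set beside that order. The macrophage sum was 12876, 8198 and 27184 in fat controls and 8263, 15202 and 12593 in fat knockouts. For 13 T cell and Treg genes it was 10615, 11137 and 9730 in fat controls and 10916, 12612 and 12401 in fat knockouts. For 13 further endothelial genes it was 835, 3820 and 1032 in fat controls and 1605, 3680 and 827 in fat knockouts. For 12 further adipocyte genes it was 2814, 2417 and 3443 in fat controls and 2521, 3121 and 3820 in fat knockouts. For 18 further stromal and matrix genes it was 3578, 4004 and 4271 in fat controls and 3595, 5126 and 3484 in fat knockouts. The endothelial sum peaked on slide 2 in both genotypes, as did the T cell sum within a much narrower range. The mean log2 intensity of the T cell genes did not peak there. It was 9.16, 8.78 and 8.73 in fat controls and 9.17, 9.18 and 9.29 in fat knockouts. The macrophage and further stromal sums were highest on slide 3 in controls and on slide 2 in knockouts. The further adipocyte sum was highest on slide 3 in both genotypes.

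**Figure D5:**
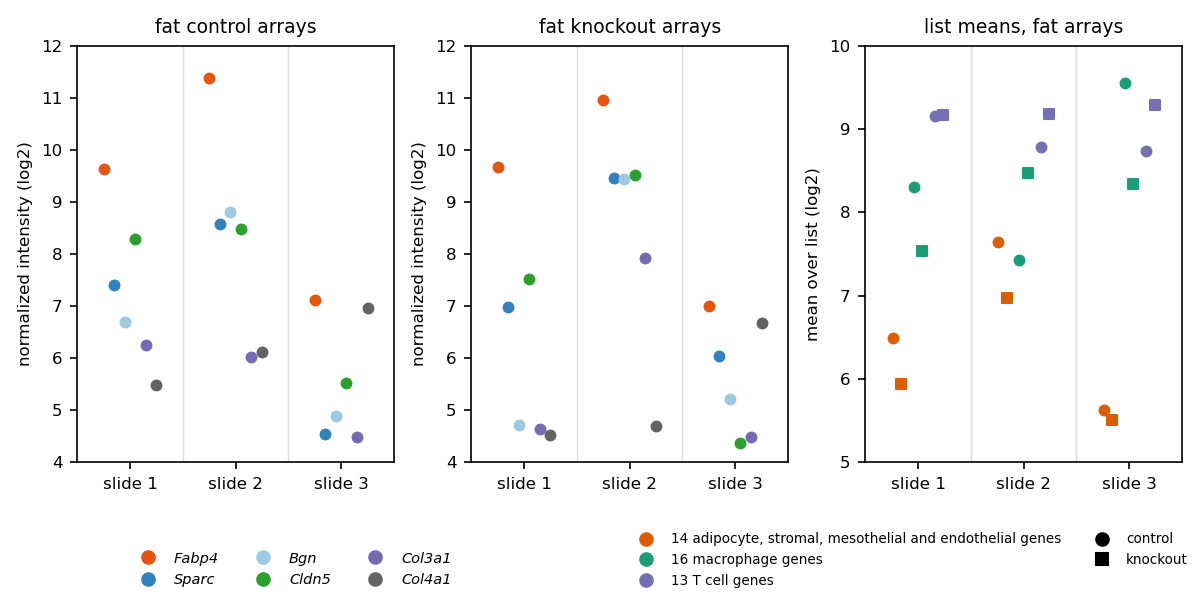
Normalized log2 intensity of 6 genes in the fat arrays of each slide, controls (left) and knockouts (middle), and the mean log2 intensity of 3 gene lists in the same arrays (right; circles control, squares knockout). Fabp4, Sparc, Bgn and Cldn5 are highest on slide 2 in both genotypes, Col4a1 is highest on slide 3, and the 14-gene mean runs from 5.51 to 7.64.

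Across the 6 fat arrays, pairs of kept genes had a median Pearson r of 0.31 within a class (22 pairs, from -0.67 to 0.91) and 0.45 between classes (69 pairs, from -0.95 to 0.94). The genes of 1 class thus did not track each other more closely than genes of different classes did by this median. Several of the genes were undetected in some fat arrays, so the medians include pairs at the detection limit. The r of -0.95 was of Lipe with Col4a1, and the tested Lipe probe was detected in 2 fat arrays. For the gene of widest range in each class, 14 relations were computed with exact permutation tests over the 720 orders of 6 arrays, 2-sided. Fabp4 and Cldn5 gave r = 0.94 (exact p = 0.0139, adjusted 0.117) and rho = 0.89 (exact p = 0.0333, adjusted 0.163), with r = 0.65 after leaving out the 2 arrays farthest from the median of Fabp4. Fabp4 and Sparc gave r = 0.92 (exact p = 0.0167, adjusted 0.117) and rho = 0.83 (exact p = 0.0583, adjusted 0.163), with r = 0.85 after the same step. Sparc and Cldn5 gave r = 0.87 (exact p = 0.0278, adjusted 0.13) and rho = 0.94 (exact p = 0.0167, adjusted 0.163), with r = 0.86. Fabp4 and Krt8 gave rho = 0.83 (exact p = 0.0583) with r = 0.60 (exact p = 0.149). Krt8 was detected in 2 of the 6 fat arrays, so most of its ranks order undetected values. Fabp4 and Cd3e, a T cell receptor gene, gave rho = -0.83 (exact p = 0.0583) with r = -0.52 (exact p = 0.308). None of the 14 relations passed the adjustment. Against the complement gene C1qb of macrophages, r was -0.30 to -0.07, and against Cd3e it was -0.52 to -0.11, with rho from -0.83 to -0.54. After leaving out 2 arrays by the same step, r ran from -0.09 to 0.89 against C1qb and from -0.63 to 0.76 against Cd3e. The negative signs thus did not hold in all of these pairs. The points share slides and genotypes, and each slide holds 2 fat arrays, too few for a value within slides.

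Further genes of the same cell types, listed by known function, were called as follows, to be read against the 7.27% of all genes called higher and 8.41% called lower in the averaged comparison. Of 30 further adipocyte genes, 12 were kept and 5 rose in fat in the averaged comparison, with none lower and a median difference of 1.13. They were the fatty acid transporter Cd36, lipoprotein lipase (Lpl), the triglyceride synthase Dgat2, the nuclear receptor Pparg and the desaturase Scd1. Cd36 was detected in no spleen array and the other 4 in 1 each, so all 5 needed fat arrays to pass the filter. That favours positive differences, so neither this count nor the median is a test of the list. Fn1, Fbln2, Gas6, Fstl1, Esam, Cav1 and Lyve1 of the lists below also passed through fat arrays alone, and Rspo1 and Kcnj8 through spleen arrays alone. Pparg, Cd36 and Lpl are also known from macrophages, and Pparg from the Tregs of visceral fat. Cd36 ran from 4.35 to 4.71 in spleen, undetected, and read 9.23, 8.51 and 10.78 in fat controls and 9.14, 8.91 and 9.60 in fat knockouts. Its averaged difference was 4.82 (at least 19.7-fold, adjusted p = 4.81e-06), and its highest array was fat control 3, where Fabp4 and Sparc were near their lowest. For Lpl the fat values were 9.36, 8.84 and 9.19 in controls and 8.48, 10.12 and 10.54 in knockouts, and the difference 4.80. Pparg differed by 3.45, Dgat2 by 3.48 and Scd1 by 1.43. The synthesis enzymes Fasn, Acaca and Acacb, the retinol carrier Rbp4 and the lipogenic factor Thrsp were undetected in every array.

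Of 50 further stromal and matrix genes, 18 were kept and 3 rose, with a median difference of 0.40. Lamc1, a laminin chain of basement membranes, read 7.87, 6.49 and 6.65 in fat controls and 8.82, 9.38 and 8.39 in fat knockouts, against 4.59 to 6.40 in spleen, a difference of 2.73. Fibronectin (Fn1) read 7.93, 6.52 and 7.28 in fat controls and 6.91, 6.43 and 8.11 in fat knockouts and was undetected in spleen, a difference of 2.65, at least 4.40-fold. Both were above spleen in all 6 fat arrays, unlike Sparc or Bgn. The eosinophil chemokine Ccl11 differed by 1.20 (adjusted p = 0.0437).

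Of 15 further mesothelial genes, 4 were kept, and the 1 call was of the secretory protease inhibitor Slpi, with a difference of -1.43 (adjusted p = 0.0497). Of 28 further endothelial genes, 13 were kept, with 1 higher and 1 lower, shares near those of all genes, and a median difference of 0.50. Prox1, the lymphatic endothelial transcription factor, read 4.93, 5.85 and 4.87 in fat controls and 6.41, 7.83 and 8.26 in fat knockouts, against 4.46 to 5.22 in spleen. Its averaged difference was 1.61 (adjusted p = 0.00678), and the fat knockouts were all above the fat controls, a difference that did not pass the threshold (2.28, adjusted p = 0.232). The adhesion protein Icam2, which lymphocytes also carry, was lower in fat (-1.52, adjusted p = 0.0326). Of 13 smooth muscle and pericyte genes, 6 were kept and none was called in the averaged comparison, with a median difference of 0.12.

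The lists of immune cells give the setting of these values. Clec10a, a macrophage lectin, differed most among the macrophage genes named (5.72), followed by the scavenger receptor Cd163 (4.41) and the lysozymes Lyz2 (3.90) and Lyz1 (3.80). Of 13 kept T cell and Treg genes, 2 rose in fat, Il2ra (1.51) and Ctla4 (1.11), both abundant in Tregs, and 4 fell, among them Zap70 (-0.90; adjusted p = 0.0455, and 0.0633 with the slide as a block) and Cd3d (-0.85). The summed T cell list was 12756 to 14983 in spleen and 9730 to 12612 in fat. Of the 10 listed markers also known from leukocytes or platelets, 5 were kept and 2, Fabp4 and Sparc, were called in the averaged comparison, against 7.27% of all genes called higher.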

How the data were processed

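Total RNA was amplified, biotin-labelled and hybridised to bead arrays, per the labels' protocols. The authors deposited a non-normalized table with an intensity and a detection p-value per probe and array, and a normalized table whose values were put on the log2 scale here as an alternative; GenomeStudio is named in the submitters' processing notes, with no version. Of 45281 probes, 34885 had 1 gene symbol, 18 several and 10378 none. Intensities were background-corrected with nec (offset 16, limma 3.58.1 in R 4.3.3), quantile normalized and log2 transformed. After the filter, 20367 probes remained, and 1 probe per gene (highest mean) gave 10025 genes. A group-means fit over 12 arrays (lmFit, eBayes) gave 6 contrasts, with Benjamini-Hochberg adjustment; the fit was tested on simulated data. The median SE of a difference of 2 groups was 0.476; 12 arrays limit the precision. An "at least" fold sets an undetected group at its arrays' lowest detected signals. Values were named by a rule: those called, and per class the 3 of widest range in fat; of other lists, up to 4 of the largest called differences. Cd68 was not used here. The members and lists were chosen with earlier results of these data known. Replicate numbers mark shared slides, per the labels; deviations of arrays of a slide correlated at a median of 0.067 over 18 pairs, from -0.0476 to 0.347. Alternatives covered background, normalization, filter, probe choice, array weights, the slide block and leaving out arrays or slides.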

Additional observations from a re-analysis of the deposited data

Results flagged for a closer look

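Cdh5 differed between the tissues in the direction of its knockout minus control values. On the 3 slides the difference was 0.38, 0.37 and 0.36 in spleen and -0.16, -0.35 and -0.08 in fat, so every pair of arrays moved one way in spleen and the other way in fat. The change of the effect, fat minus spleen, was -0.57 on the log2 scale, with a limma adjusted p = 0.999. The probe behind these values was detected in 3 of 12 arrays, so most of them lie at the detection limit.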

How the results depend on the processing

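Averaged over genotypes, Fabp4 kept its direction and its call under every alternative run except without slide 1 (adjusted p = 0.0584), and Igfbp7 under all but leaving out slide 1 (0.168) or slide 2 (0.166). Sparc lost its call in 6 of 26 alternatives (adjusted p from 0.00233 to 0.196) and Cd300lg in 15 of 25 (0.000212 to 0.277). Of the genes of other lists, Ccl11 lost its call in 19 of 26 alternatives, Slpi in 21, Icam2 in 12, Zap70 in 20, Ctla4 in 6, Cd3d in 4, Il2ra in 3 and Prox1 in 1. Leaving out whole slides was chosen after seeing the data; it takes 1 array from every group. The numbers of genes called in controls, knockouts and the average, 2, 1 and 4, were 1, 0 and 2 in the authors' normalized table and likewise without background correction, and 0, 0 and 2 without the filter. Of all genes, 6.44%, 5.78% and 15.7% were called in the main fit, in either direction. These shares were 6.57%, 6.13% and 16.1% in the authors' table and 6.57%, 6.13% and 16% without background correction. Without the filter they were 2.6%, 2.27% and 6.66%, with 37 members tested. The numbers were 1, 0 and 1 without slide 1, where the gene was Selp both times and none of the genes called in the main fit held. The shares of all genes fell there too, to 1.49%, 0.738% and 6.04%. The numbers were 0, 0 and 1 without slide 2, where the gene was Fabp4 (shares 2.32%, 1.41% and 7.84%). They were 3, 2 and 5 without slide 3 (3.45%, 3.43% and 10.5%). With detection at p below 0.01 the control count was 1, of 8 members tested (7.85% of all genes). The knockout count was 0 at an offset of 50 (6.04%). It was 2 with the mean of a gene's probes (6.8%), array weights (6.49%) or a fit of single probes (4.53% of probes). Leaving out 1 array gave 0 to 3 in controls, 0 to 2 in knockouts, 3 to 5 averaged and 0 to 1 for genotype in fat. Of all genes, 3.17% to 6.68%, 3.04% to 6.75%, 11.8% to 15.1% and 0% to 0.0299% were then called. The slide as a replicate block gave 2, 1 and 5 (6.4%, 6.21% and 16.5% of all genes). It added Cldn5 (adjusted p = 0.042), lost Zap70 and changed no other call of the named genes. Leaving out 1 array gave averaged differences of -0.161 to 0.016 for Lipe and -0.119 to 0.03 for Cdh5. These near-zero differences turned sign for Pecam1 under median scaling (0.029), for Lipe without spleen control 1 (0.005), spleen knockout 1 (0.016), fat knockout 3 (0.006) or slide 3 (0.006), and for Cdh5 without spleen control 1 (0.027), spleen knockout 1 (0.03), fat control 1 (0.003) or slide 1 (0.188). Apart from these effects of fewer arrays, the cause was not tested. Signal over background also limits these values: the lowest detected signals were 4.83 to 5.53, and values below them carry no order.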
